A study of Mus musculus with 6 samples.

Results

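Podocyte genes were measured in whole kidneys of mice after a temporary stop of the blood supply. The group held 8 genes (Nphs1, Cd2ap, Plce1, Synpo, Podxl, Clic5, Ptpro and Wt1) of 18193 genes with a probe set of a single symbol. They were chosen by symbol in the platform annotation, and each was read from its single-symbol probe set with the highest mean intensity over the 6 arrays. All 8 passed the filter on dim probe sets, which kept 12734 genes. Podocytes are the epithelial cells on the outer face of the glomerular capillary. Their foot processes interlock across a slit diaphragm that holds back plasma protein, and loss of the proteins encoded by several of these genes causes nephrotic syndrome in humans or mice.

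All animals were male FVB/N mice, aged 6 to 8 weeks, weighing 22 to 26 g, with no genetic change named in the labels. Under pentobarbital, the pedicle of 1 kidney was clamped (0, 45 or 60 min) and released, and kidneys were collected 1 or 3 days later. The labels do not say how the 0 min kidneys, to which every clamp difference refers, were operated on beyond a clamp time of 0 min. Each of the 6 combinations of clamp time and day had 1 Affymetrix array, and the labels do not say whether an array held RNA of 1 animal.

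The arrays gave linear intensities with medians between 81.4 and 95.3. A sign of RNA quality, the beta-actin control probe set of the 3' end over that of the 5' end (log2), was 0.49 on the 60 min day 3 array, 0.77 on the 0 min day 3 array and 1.03 to 1.12 on the other 4. A lower value means less excess of 3' over 5' signal. The same ratio for Gapdh was -0.37 to -0.33 on the day 3 arrays and -0.23 to -0.20 on the day 1 arrays, with no array of day 3 apart from the others of its day. Differences are given on the log2(intensity + 16) scale, which understates those of dim genes. They were tested with limma in a fit of clamp time plus day, which uses the days in place of replicates and leaves 2 residual degrees of freedom. With Benjamini-Hochberg adjustment over 12734 genes (adjusted p under 0.05), limma called 0 genes in 60 against 0 min, in 45 against 0 min, in 60 against 45 min and in day 3 against day 1 (0% of genes in each). At an unadjusted p under 0.05 it listed 2723, 740, 1661 and 1153 genes in that order. Of the podocyte genes, 0 passed, and all differences below are descriptions by size with their SE. The p-values measure the spread between these 6 arrays only, and their number limits the precision.

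Of the 8 genes, Cd2ap and Synpo were higher with each longer clamp time on both days, Wt1 was higher in every clamped kidney than in both 0 min kidneys, Nphs1 was lowest at 60 min, and Podxl and Clic5 lay on opposite sides of their 0 min kidney on the 2 days. The limma difference of 60 minus 0 min ran between -0.29 ± 0.18 for Nphs1 and 0.74 ± 0.14 for Cd2ap, with a median of 0.11 over the 8 genes against 0.03 over all genes. For 45 minus 0 min it ran between -0.09 ± 0.18 for Nphs1 and 0.75 ± 0.21 for Wt1, with a median of 0.18 against -0.01. Both comparisons use the same 0 min arrays. The kidney is bulk tissue, in which fewer podocytes and less RNA per podocyte cannot be told apart. Of 72 differences between single arrays (8 genes in 9 comparisons) 1 reached 2-fold, that of Wt1 between 45 and 0 min at day 1. In that comparison 4.63% of all genes did. With 0 podocyte genes, 2.29% of all genes did so for 45 against 0 min at day 3, 9.89% and 6.1% for 60 against 0 min at day 3 and day 1, and 8.36% and 2% for 60 against 45 min. For day 3 against day 1 the shares were 3.11% at 0 min, 3.24% at 45 min and 4.1% at 60 min.

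**Figure D1:**
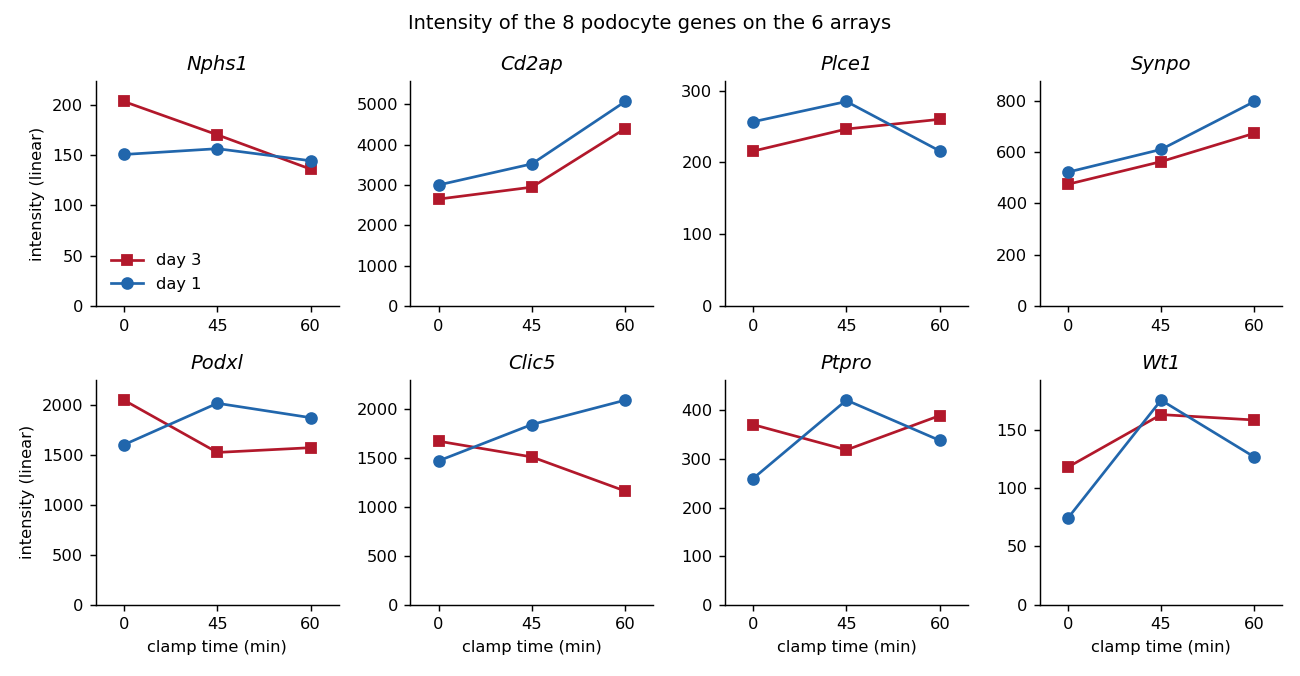
Intensity (linear scale, axis starting at 0) of each of the 8 genes against clamp time in minutes, with 1 point per array, squares for day 3 and circles for day 1. Cd2ap and Synpo are higher with each longer clamp time on both days, and Nphs1 is lowest at 60 min. The lines of day 3 and day 1 cross for every gene but Cd2ap and Synpo.

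The slit diaphragm genes come first. Nphs1 encodes nephrin, the transmembrane protein that spans the slit, and it has a single probe set on the array. At day 3 its intensity was 203 at 0 min, 170 at 45 min and 136 at 60 min, and at day 1 it was 151, 156 and 144 in the same order. Both 60 min arrays thus lay below the other 4, as for 13.2% of all genes. At day 3 the 3 clamp times stood in descending order, while at day 1 they lay within 0.10 of each other on the log2 scale, less than the residual SD of 0.18. The difference of 60 minus 0 min was -0.53 at day 3 and -0.06 at day 1, and -0.29 ± 0.18 in the fit (limma adjusted p = 0.395). It was -0.10 without the 0 min array of day 3 and -0.48 without that of day 1. The beta-actin ratio was also lowest on the 60 min day 3 array, and its part in this value was not tested.

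Cd2ap encodes an adaptor that ties nephrin to actin. It is also made in other cells of the kidney, unlike nephrin. At day 3 its intensity was 2649.9 at 0 min, 2946 at 45 min and 4397 at 60 min, and at day 1 it was 2999, 3521 and 5066. The 60 min kidney thus had 1.66 times the intensity of the 0 min kidney at day 3 and 1.69 times at day 1. Both 60 min arrays lay above the other 4, as for Synpo among these genes and for 18% of all genes. The fitted difference of 60 minus 0 min was 0.74 ± 0.14 (lower 95% limit 0.38, limma adjusted p = 0.0982). That of 60 minus 45 min was 0.55 ± 0.14 (adjusted p = 0.333) and that of 45 minus 0 min 0.19 ± 0.14 (adjusted p = 0.886). With a robust variance trend, the single alternative in which a podocyte gene passed, Cd2ap had an adjusted p = 0.0226 for 60 minus 0 min, among 615 genes called.

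All 3 probe sets of Cd2ap, which the annotation ties to the same source sequence, gave the same order of 60 over 0 min. The second had 402, 469 and 855 at 0, 45 and 60 min of day 3 and 401, 627 and 791 at day 1. The dimmest had 203, 203 and 387 at day 3 and 238, 348 and 469 at day 1. Their differences of 60 minus 0 min were 1.06 and 0.95 for the second and 0.88 and 0.93 for the dimmest at day 3 and day 1, each above the 0.73 and 0.75 of the brightest probe set. For 45 minus 0 min they were less alike, with -0.0014, 0.15 and 0.21 at day 3 against 0.52, 0.23 and 0.63 at day 1 (dimmest, brightest and second probe set).

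Sequences upstream of the start sites are shown for Cd2ap and Nphs1 because these slit diaphragm genes lay at opposite ends of the 60 min differences. RefSeq (GRCm38.p6) promoters were used for 5 of the 8 genes. The search for these genes skipped a chromosome, so a gene without a promoter here may have one in RefSeq. The 250 bases before the start were used, written along the gene's strand. Cd2ap is on the minus strand (chr17:42876425-42876674) and Nphs1 on the plus strand (chr7:30459808-30460057). Capitals mark the letters GGGCGG (a GC box) or GCGNGGGNG (a WT1 and EGR motif), searched on both strands.
Cd2ap: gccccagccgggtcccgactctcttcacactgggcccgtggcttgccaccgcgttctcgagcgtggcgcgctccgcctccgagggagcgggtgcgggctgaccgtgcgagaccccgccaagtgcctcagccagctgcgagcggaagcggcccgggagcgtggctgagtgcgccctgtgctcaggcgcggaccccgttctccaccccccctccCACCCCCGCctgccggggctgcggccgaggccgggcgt
Nphs1: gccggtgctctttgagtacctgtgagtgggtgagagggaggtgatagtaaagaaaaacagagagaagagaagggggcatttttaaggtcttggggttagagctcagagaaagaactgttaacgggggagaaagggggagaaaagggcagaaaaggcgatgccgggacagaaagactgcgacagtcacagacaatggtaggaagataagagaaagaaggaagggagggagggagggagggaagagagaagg
The Cd2ap window held 76.4% G or C and 31 CpG pairs, more than 97% and 94.8% of 32851 promoters. The Nphs1 window held 50.8% and 5, near the medians of 52.4% and 6. GCGNGGGNG was found once in Cd2ap and not in Nphs1, and 10.5% of all promoters held it. GGGCGG was found in neither of them, and 32.7% of all promoters held it. Of 2 further motifs, CANNTG (the E-box) was found 2 times in Cd2ap and 0 times in Nphs1 (66.2% of all promoters held it), and TAATTA (an LMX1B motif) in 0 of the 5 genes (4.84%). A match is a description of letters and not a bound site.

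Plce1 encodes phospholipase C epsilon, a signalling enzyme needed for glomerular maturation in humans. Its intensity was 216, 246 and 260.0 at 0, 45 and 60 min of day 3 and 257, 285 and 216 at day 1. The highest array had 1.32 times the lowest, the narrowest range of the 8 chosen probe sets, and 0 of the 5 gaps between neighbouring arrays exceeded the residual SD of 0.19. The fitted difference of 60 minus 0 min was 0.01 ± 0.19 with an interval of -0.47 to 0.49 (limma adjusted p = 0.983), and it turned to -0.13 with quantile normalization.

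Genes of the foot process and its surface follow. Synpo encodes synaptopodin, an actin-binding protein of foot processes that also occurs in other contractile cells. At day 3 its intensity was 474 at 0 min, 563 at 45 min and 673 at 60 min, and at day 1 it was 522, 610.3 and 797. The 4 clamped kidneys lay above both 0 min kidneys, as for Wt1 among these genes and for 10.9% of all genes. Synpo and Cd2ap were the 2 genes of the 8 with 0 below 45 below 60 min on both days, an order found in 9.57% of all genes. The opposite order was found in 0 of the 8 and 7.96% of all genes, and 0 of the 8 lay below both 0 min kidneys on all 4 clamped arrays, as 8.94% of all genes did. The fitted difference of 60 minus 0 min was 0.54 ± 0.14 (95% interval 0.17 to 0.91, limma adjusted p = 0.145) and that of 45 minus 0 min 0.23 ± 0.14 (adjusted p = 0.872).

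The second probe set of Synpo was near background, with 16.6, 35.7 and 2.28 at 0, 45 and 60 min of day 3 and 6.50, 45.0 and 40.4 at day 1. It did not pass the filter. Its difference of 60 minus 0 min was -0.83 at day 3 and 1.33 at day 1, so the 2 probe sets disagreed at day 3. With the mean of both probe sets, 60 minus 45 min turned to -0.25, against 0.31 ± 0.14 with the brighter one.

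Podxl encodes podocalyxin, the charged sialoprotein that coats foot processes and is also present on endothelium. Its intensity was 2049 at 0 min, 1525 at 45 min and 1573 at 60 min of day 3, and 1602, 2018 and 1873 at day 1. Both clamped kidneys lay below the 0 min kidney at day 3 and above it at day 1, as for Clic5 among these genes and for 7.52% of all genes. The neighbouring arrays in the order of levels each differed by less than the residual SD of 0.23, and the fitted difference of 60 minus 0 min was -0.08 ± 0.23 (limma adjusted p = 0.873). The dimmer probe set had 128, 189 and 98.6 at day 3 and 188, 239 and 217 at day 1. It gave 0.51 for 45 minus 0 min at day 3, where the brighter one gave -0.42.

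Clic5 encodes a chloride intracellular channel protein that binds ezrin in foot processes and is also found in endothelium. Its intensity was 1671, 1510.0 and 1162 at 0, 45 and 60 min of day 3 and 1470, 1841 and 2090.3 at day 1. The 60 min kidney was thus the lowest of all 6 at day 3 and the highest at day 1. Like Podxl, it lay above 0 min at day 1 and below it at day 3 at this clamp time, as 14.1% of all genes did. The difference of 60 minus 0 min was -0.52 at day 3 and 0.50 at day 1, and the days cancelled in the fit (-0.01 ± 0.27, limma adjusted p = 0.990). It was 0.39 if the 60 min array of day 3 was left out, and -0.40 if that of day 1 was. All 4 probe sets of Clic5 lay below the 0 min array on both clamped arrays of day 3, with log2 differences of -0.14 to -0.62. At day 1, 7 of the 8 corresponding differences were above 0 (0.06 to 0.54), and the second brightest probe set gave -0.12 at 60 min. Again the beta-actin ratio was lowest on the 60 min day 3 array, and its part was not tested.
The 250 bases before its start (chr17:44188322-44188571, plus strand) held 2 GC boxes, in capitals, and are shown since Clic5 was the gene with opposite differences on the 2 days by the widest margin.
Clic5: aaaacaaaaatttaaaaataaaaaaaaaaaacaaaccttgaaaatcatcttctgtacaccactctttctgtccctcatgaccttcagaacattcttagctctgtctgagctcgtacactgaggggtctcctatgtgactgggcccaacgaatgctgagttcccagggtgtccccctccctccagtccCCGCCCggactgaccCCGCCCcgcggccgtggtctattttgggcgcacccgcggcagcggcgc
They held 52.8% G or C and 13 CpG pairs, more than 51.1% and 68.5% of all promoters.

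Ptpro encodes the receptor tyrosine phosphatase GLEPP1 of the foot process surface, with a shorter form in leukocytes. Its intensity was 370.4 at 0 min, 318 at 45 min and 389 at 60 min of day 3, and 259.6, 421 and 338 at day 1. The 0 min day 1 kidney was the lowest and stood 0.28 below its neighbour on the log2 scale, more than the residual SD of 0.24, while the other 5 arrays followed each other by less than that. The fitted difference was 0.21 ± 0.24 for 60 minus 0 min and 0.23 ± 0.24 for 45 minus 0 min (limma adjusted p = 0.651 and 0.918). Both turned below 0 without the 0 min day 1 array (-0.077 and -0.064). The dimmer probe set had 123, 92.4 and 177 at day 3 and 76.8, 144 and 82.0 at day 1, with the same direction as the brighter one in each of the 4 differences from 0 min.

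Wt1 encodes the zinc finger transcription factor that podocytes keep through adult life and that activates Nphs1 and Podxl. Its single probe set was dim, with 118, 163 and 158 at 0, 45 and 60 min of day 3 and 74.0, 175 and 127 at day 1. All 4 clamped kidneys lay above both 0 min kidneys. With Synpo, Cd2ap and Plce1 it was 1 of 4 genes higher at 45 than at 0 min on both days (24.2% of all genes). The difference of 45 minus 0 min was 0.42 at day 3 and 1.09 at day 1, and 0.75 ± 0.21 in the fit (95% interval 0.23 to 1.28, limma adjusted p = 0.803). That of 60 minus 0 min was 0.52 ± 0.21 (adjusted p = 0.238), which became 0.28 without the 0 min array of day 1 and 0.76 without that of day 3. The value for 45 minus 0 min was 0.49 when the day 1 array of 45 min was left out, and 1.02 when that of day 3 was. Wt1 and Nphs1 thus lay on opposite sides of 0 at 60 min on both days, and the difference between the genes was not tested.

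**Figure D2:**
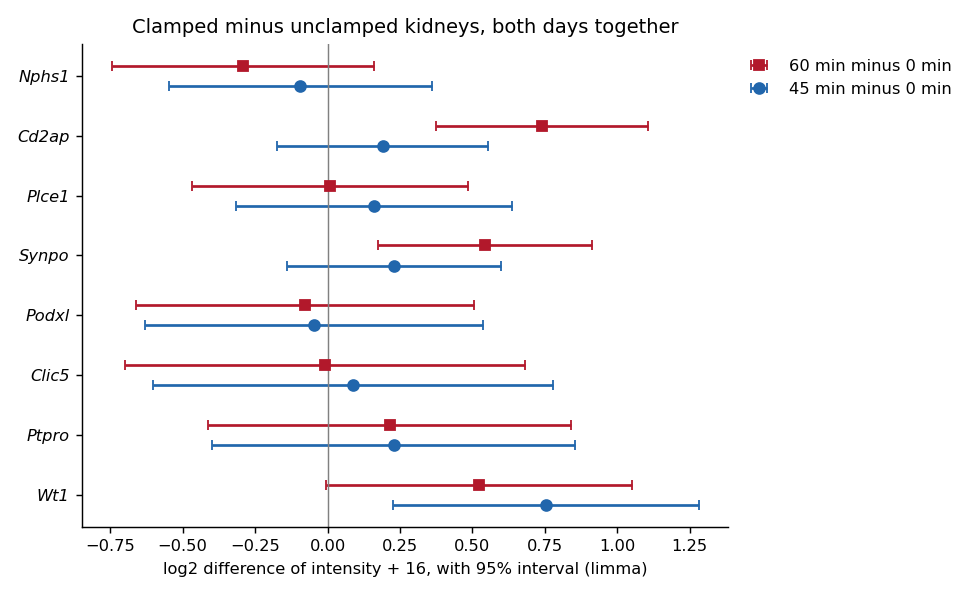
Log2 difference of intensity + 16 for each gene over both days, squares for 60 minus 0 min and circles for 45 minus 0 min, with 95% intervals from limma as bars. At 60 min the unadjusted intervals of Cd2ap (from 0.38) and Synpo (0.17 to 0.91) lie above 0, as does that of Wt1 at 45 min (0.23 to 1.28).

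**Figure D3:**
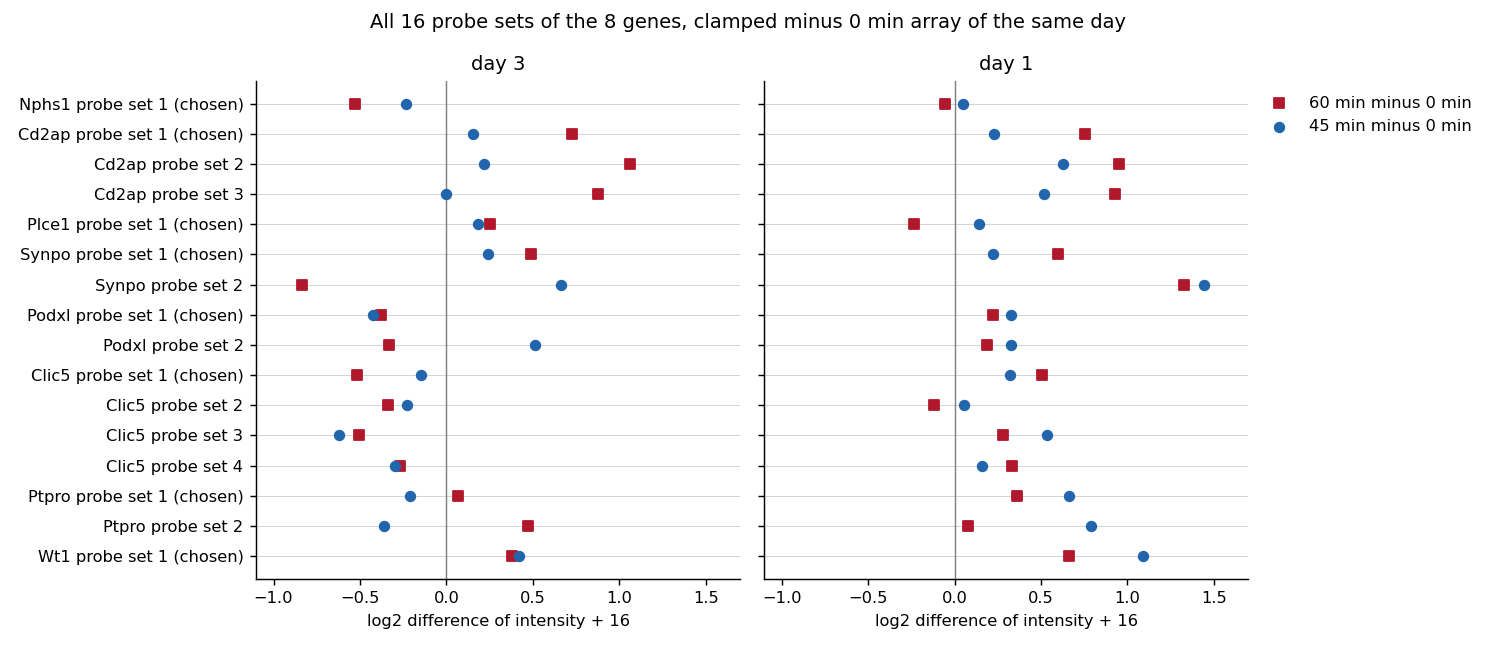
Log2 difference of intensity + 16 from the 0 min array of the same day for all 16 probe sets of the 8 genes, day 3 on the left and day 1 on the right, squares for 60 min and circles for 45 min. The 3 Cd2ap probe sets lie together at 60 min on both days, while the dim second Synpo probe set changes sides between days.

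The days were compared next. Over the 3 clamp times, day 3 minus day 1 ran from -0.31 ± 0.22 for Clic5 to 0.26 ± 0.17 for Wt1 (limma adjusted p from 0.624 to 0.928). Both ends moved when 1 clamp time was left with a single array, in either direction. Clic5 gave -0.050 if its 60 min value of day 1 was dropped, and the same if that of day 3 was. It gave -0.56 without a 0 min value and -0.33 without a 45 min value, of either day. Wt1 gave 0.097 on dropping its 0 min value, whether that of day 1 or that of day 3. Without a 45 min value of either day Wt1 gave 0.43, and without a 60 min value 0.24. In the 0 min kidneys alone, 5 of the 8 genes were higher at day 3, as 49.9% of all genes were. The median was 0.27 over the 8 genes and -0.0011 over all genes. In the 45 min kidneys 1 of 8 was higher (Nphs1, 0.11), where 41.3% of all genes were. The median there was -0.23 against -0.07 over all genes. In the 60 min kidneys 3 were (50.4% of all genes were), from -0.84 for Clic5 to 0.29 for Wt1, with a median of -0.14 against 0.0023 over all genes. At day 3, 3 genes (Nphs1, Podxl and Clic5) lay below the 0 min kidney at both clamp times, as 31.7% of all genes did. At day 1, 6 genes lay above the 0 min kidney at both clamp times (all but Nphs1 and Plce1), as 39.6% of all genes did.

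Whether the clamp effect changed between days was tested in a second fit, which takes both clamped kidneys of a day as 1 group against the 0 min kidney of that day. Its residual spread is only that between the 45 and 60 min kidneys of a day, which holds any effect of clamp time, and each 0 min arm is 1 array. The SE of Cd2ap was thus 0.52 here and 0.14 in the first fit, and an adjusted p near 1 does not show that the clamp effect was alike on both days. Limma called 0 of 12734 genes (0%), with 282 at an unadjusted p under 0.05. Over the 8 podocyte genes the median was -0.43, against -0.03 over all genes. A value above 0 was found in 1 of them and in 47.1% of all genes. The other 7 were negative, meaning a lower clamp difference at day 3 than at day 1. The largest were -0.74 ± 0.37 for Clic5 and -0.68 ± 0.30 for Podxl, and Plce1 alone was positive (0.26 ± 0.36). Each had an adjusted p of 1.00. The day 1 and day 3 effects rest on separate 0 min arrays, of which that of day 1 was the lower for 5 of these genes.

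Genes with the nearest pattern over the 6 arrays were taken from 12165 candidates by Pearson's r, as a description with no test. Cd2ap was most like Tmbim1 (r = 0.999), the translation inhibitor gene Eif4ebp1 (0.995) and Coro1c, which encodes an actin-binding coronin (0.994). Synpo was most like Pold4 (0.996), the lysosomal protease gene Ctsb (0.995) and Arhgap12 (0.994). Nphs1 was nearest to Cox18, Tmem242 and Msra (0.987 to 0.988), Podxl to the connexin gene Gja4, Sox10 and Armh3 (0.982 to 0.986), and Clic5 to Coq7, Psmb7 and Unc50 (0.978 to 0.985). Wt1 was nearest to Fem1b, Rsrc2 and Otud7b (0.971 to 0.986), Ptpro to Bicra, B3galnt1 and Apmap (0.982 to 0.988), and Plce1 to Kdm6a, Rnf169 and Wapl (0.967 to 0.984). Among the 28 pairs of podocyte genes, r ran from -0.791 for Nphs1 and Cd2ap to 0.975 for Synpo and Cd2ap, over 6 arrays that share the scaling and 1 RNA sample each.

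Other genes of the podocyte were read from 5 lists, of which 0 genes passed at 60 against 0 min. Among 10 genes of the slit diaphragm and its signalling, 9 were higher at 60 than at 0 min on both days (38.7% of all genes were) and 0 lower, with a median of 0.35. They included Kirrel, the nephrin partner NEPH1 (0.95 ± 0.33, limma adjusted p = 0.204), the giant cadherin gene Fat1 (0.75 ± 0.14, adjusted p = 0.0984) and the polarity kinase gene Prkci (0.53 ± 0.17, adjusted p = 0.178). Most of this list is also made in tubule cells. Kirrel had 209, 164 and 502 at 0, 45 and 60 min of day 3 and 179, 262 and 301 at day 1.

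Among 18 genes of the podocyte actin cytoskeleton, 8 were higher at 60 than at 0 min on both days and 6 lower, with a median of 0.17. Myh9, non-muscle myosin, had 4984, 6175 and 10012 at day 3 and 6017, 7583 and 10806 at day 1 (0.92 ± 0.15, limma adjusted p = 0.0844). Anln, an actin-bundling protein that is also part of dividing cells, differed by 3.06 ± 0.63 (adjusted p = 0.106). Myh9 and Anln were both among the 8 higher genes, and not every gene that the naming rule picks is reported for this list.

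Among 8 transcription factors of podocytes, 5 were higher and 2 lower on both days, with a median of 0.25. Tcf21, which podocytes share with stromal cells, had 1091, 911 and 2612 at day 3 and 864, 1336 and 1033 at day 1 (0.75 ± 0.44, limma adjusted p = 0.384). Zhx2 and Hey1 differed by -0.56 ± 0.21 and -0.52 ± 0.40. Among 19 other podocyte-enriched genes 10 were higher and 6 lower (31.7% of all genes were lower), with a median of 0.31. Nes, the intermediate filament nestin, differed by 0.94 ± 0.21 (adjusted p = 0.120) and Pdpn, podoplanin, by 0.70 ± 0.16 (adjusted p = 0.120). Vegfa, the growth factor that podocytes and tubules send to endothelium, had 2409, 1805 and 1423 at day 3 and 2374, 1802 and 1047 at day 1 (-0.96 ± 0.18, adjusted p = 0.0955).

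Among 15 genes of the glomerular basement membrane and its receptors, 12 were higher on both days and 0 lower, with a median of 0.56. The leading ones were Col4a1 (1.17 ± 0.29), Nid1 (1.14 ± 0.35) and Col4a2 (1.096 ± 0.33), which belong to basement membranes throughout the kidney (limma adjusted p from 0.134 to 0.170). The 3 collagen IV chains of the network that podocytes make were named after their values were seen, and they did not share a direction. Col4a3 differed by -0.34 ± 0.26 (limma adjusted p = 0.499), Col4a4 by -0.38 ± 0.24 (adjusted p = 0.418) and Col4a5 by 0.56 ± 0.41 (adjusted p = 0.477). Col4a3 had 1097 at 60 min against 1966 at 0 min of day 3, and 1479 against 1336 at day 1. Col4a4 had 4091 at 60 min against 6986 at 0 min of day 3, and 4726 against 4704 at day 1.

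Markers of other cells are given as log2 differences and as summed intensities at 0, 45 and 60 min. The sums also hold list genes that did not pass the filter, which the counts leave out. Injured tubule markers were higher at 60 than at 0 min on both days in 8 of 8 genes (median 2.65), with summed intensities of 6439, 10887 and 35679 at 0, 45 and 60 min (day 3) and 7087, 16641 and 41504 (day 1). Mesangial and mural cell markers were higher in 7 of 8 (median 0.53), with sums of 8488, 9443 and 19818 (day 3) and 6998, 12363 and 15864 (day 1). Of the day 3 sums the gene Acta2 alone held 2852 at 0 min and 7486 at 60 min. Des and Gata3 of this list differed by 0.18 ± 0.17 and 0.0013 ± 0.15 at 60 minus 0 min. Leukocyte markers were higher in 6 of 9 and lower in 1 (median 0.62), with sums of 9517, 13231 and 28793 (day 3) and 5104, 7869.8 and 6921 (day 1). At day 3 the gene Lyz2 alone held 3124 of the sum at 0 min and 17100 of that at 60 min. The B cell marker Cd79a lay below 16 on all 6 arrays. The part of these cells in the Cd2ap, Synpo, Wt1 and Kirrel values was not tested.

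Glomerular and other endothelium had 6 of 11 markers higher and 4 lower (median 0.16), among them Kdr, the VEGF receptor (-0.67 ± 0.17), and the plasminogen activator gene Plat (1.29 ± 0.26, with 4403 at 60 min and 1287 at 0 min of day 3), with sums of 11897, 12029 and 15021 (day 3) and 12439, 13555 and 13904 (day 1). All 5 genes of the parietal epithelium list were higher (median 1.45). Cd44 is also made by leukocytes and injured tubules, and whether the others are particular to parietal cells was not tested. The sums of this list were 3906, 6309.7 and 11983 (day 3) and 4790.4, 5011 and 8397 (day 1). Proximal tubule markers were lower in 9 of 10 genes (median -0.51) and those of the loop, distal tubule and collecting duct in 8 of 8 (median -0.70). Summed intensities of the proximal markers were 159661, 159377 and 114541 (day 3) and 148735, 133367 and 110054 (day 1). Those of the loop, distal tubule and collecting duct were 79921, 80359.7 and 45063 (day 3) and 80200.4, 67308 and 50759 (day 1). Next to these the 8 podocyte genes had a median of 0.11, which was 0.03 with quantile normalization and 0.01 with median centring.

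**Figure D4:**
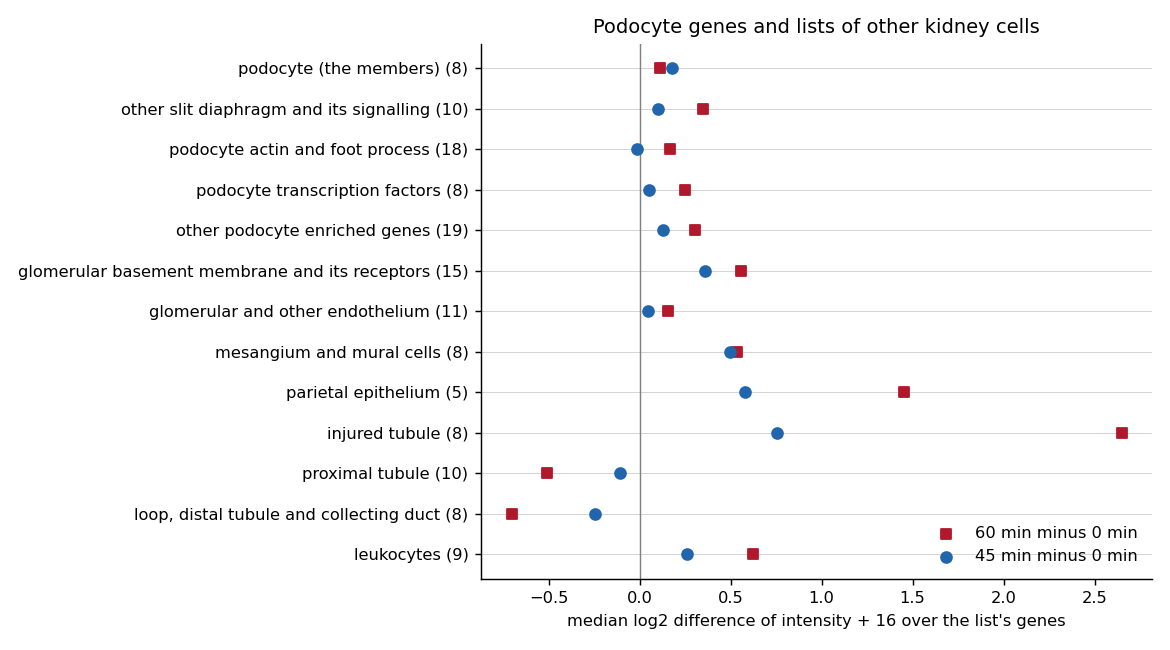
Median log2 difference of intensity + 16 over the genes of each list, squares for 60 minus 0 min and circles for 45 minus 0 min, with the number of genes in brackets. The podocyte genes lie near 0 (0.11 and 0.18), between injured tubule markers (2.65 at 60 min) and tubule segment markers (-0.51 and -0.70).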

How the data were processed

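Mouse kidney RNA was labelled with a 3' IVT kit, per the labels' protocols, and hybridised to 6 arrays, 1 per combination of clamp time and day. The deposited values are linear intensities per probe set made in Affymetrix Expression Console (submitters' processing notes), whose settings no source used here states. Each array's mean after trimming 2% at both ends was 500.003.

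The table held 45101 probe sets: 34945 with 1 gene symbol in the platform annotation, 932 with several, 9160 with none, plus 64 controls. Only those with 1 symbol were used. Per gene the probe set with the highest mean intensity was taken, and genes were kept when its mean log2(intensity + 16) reached the 40th percentile of non-control probe sets (6.01).

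Tests used limma 3.58.1 in R 4.3.3 (lmFit, eBayes), with clamp time plus day, or clamped against 0 min within each day for the change between days, over all 6 arrays. The fit was run on simulated arrays with independent noise and no day effect. That does not show how it performs on the 6 arrays used here. Podocyte genes, lists and tests were chosen with earlier results of these data known. The genes named were all 8, and per list up to 3 with the largest difference of 60 minus 0 min. Not every gene that the rule names is reported here, and markers of other cells are given mainly as counts and sums. Nearness in pattern named 3 genes per podocyte gene. Promoters came from RefSeq. Alternatives were quantile normalization, median centring, pseudocounts of 1 and 64, no filter or the 60th percentile, other probe set rules, a robust variance trend, no day term, and each array left out.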

Additional observations from a re-analysis of the deposited data

Results flagged for a closer look

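Podxl and Clic5 lay above the 0 min kidney of the same day in both clamped kidneys at day 1 and below it in both at day 3, a pattern found in 7.52% of all genes. Day 3 minus day 1 of the clamp difference was -0.68 for Podxl and -0.74 for Clic5, and limma gave both an adjusted p of 1.00, in a fit whose residual spread includes any effect of clamp time. The other 3 probe sets of Clic5 were also lower than 0 min at day 3 at both clamp times, while the dimmer Podxl probe set was higher at 45 min of day 3 (0.51). The 0 min day 1 array was lower than the 0 min day 3 array for both genes, by 0.35 for Podxl and 0.18 for Clic5, on the chosen probe sets. Day 3 minus day 1 at 0 min was -0.50 on the other Podxl probe set and -0.19, -0.027 and -0.013 on the other 3 of Clic5, the opposite direction.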

How the results depend on the processing

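The number of genes called at 60 against 0 min was 0 and became 135 with median centring, 277 with a pseudocount of 64, 202 with the filter at the 60th percentile, 20 with all probe sets of a gene averaged, 615 with a robust variance trend and 42 with no day term. Without 1 array it ran from 0 to 450 (450 without the 45 min array of either day). At 45 against 0 min it ran from 0 to 3 (without 45 min day 3), and at day 3 against day 1 it was 4 with a robust variance trend and 0 to 1 without 1 array (1 without either 45 min array). For 60 against 45 min and the change between days it was 0 throughout. The count of 2-fold single-array differences was 1 and became 0 with a pseudocount of 64. Of 598 alternative values over 40 gene and contrast pairs, 558 kept direction and call, 1 passed (Cd2ap, adjusted p = 0.0226 with a robust variance trend, adjusted p up to 0.548 without 60 min day 3) and 39 changed sign, 32 of them when an array was left out. The cause was not tested. Pairs that changed sign were 0.31 or smaller in size. Plce1 at 60 minus 0 min gave -0.13 with quantile normalization and -0.088 with median centring, and 0.0017 for day 3 minus day 1 with median centring. With probe sets averaged, 45 minus 0 min gave 0.19 for Podxl and -0.028 for Clic5, and 60 minus 45 min -0.25 for Synpo and 0.024 for Ptpro.

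With 1 array left out, 60 minus 0 min ran from -0.40 to 0.39 for Clic5, -0.22 to 0.24 for Plce1, -0.42 to 0.26 for Podxl and -0.077 to 0.51 for Ptpro. For 45 minus 0 min it ran from -0.28 to 0.46 for Clic5, -0.28 to 0.096 for Nphs1, -0.38 to 0.29 for Podxl and -0.14 to 0.59 for Ptpro. For 60 minus 45 min it ran from -0.49 to 0.30 for Clic5, -0.38 to 0.082 for Plce1, -0.26 to 0.19 for Podxl, -0.38 to 0.35 for Ptpro and -0.50 to 0.033 for Wt1. For day 3 minus day 1 it ran from -0.22 to 0.027 for Plce1, -0.32 to 0.051 for Podxl and -0.095 to 0.34 for Ptpro, and for the change between days from -0.34 to 0.24 for Cd2ap and -0.23 to 0.15 for Synpo. The change between days has no value without either 0 min array, and Wt1 and Nphs1 have none with the filter at the 60th percentile. The arrays were paired by day in the fit, and the labels give no replicate numbers for any further block.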
